A study of Mus musculus with 24 samples.

Results

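The densest groups of candidate enhancers that MLL-AF10 leukemia cells gained over normal granulocyte-monocyte progenitors (GMP) were examined. Members were the gained regions on chromosomes 1 to 19 that lay in clusters of 6 or more when neighbours no more than 12.5 kb apart were stitched together, with chromosome 11 below 3100000 left out. They numbered 1672 of the 15189 gained regions in the deposited list, and of the 14955 gained regions on the chromosomes used. They formed 224 domains. Members were chosen by the deposited positions of the gained regions, so the number of regions, their crowding and the span of a domain are given as description only.

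The series profiled H3K27ac, H3K4me1 and H3K4me3 by ChIP-seq in bone marrow cells of C57BL/6 mice: GMP, leukemia stem cells and mature acute myeloid leukemia cells, with 1 library for each mark and population. GMP were the normal counterpart, while the leukemia was driven by MLL-AF10 and its cells were grown in culture, per the labels' protocols. The labels do not state how the fusion was introduced. A further time course of leukemia stem cells with A-485, which blocks the acetyltransferases p300 and CBP, did not enter these lists as far as the labels tell and was not analysed here. The region lists name no sample. The lists named k+ and k- are the leukemia catalogues from which the gained list was merged, and the labels do not say which of them belongs to leukemia stem cells and which to mature leukemia cells. No list has a replicate or a score, so read depth per region is unknown, and every comparison describes these lists.

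Enhancers are stretches of DNA that raise transcription of genes at a distance, and nucleosomes beside active ones usually carry H3K27ac and H3K4me1. Enhancers crowded close together are often called super-enhancers or stretch enhancers, and are known for lying near genes that set the identity of a cell. That name is usually given by ranking stitched enhancers on their ChIP signal, and since these lists hold no signal no domain is called a super-enhancer here. MLL fusions join the start of the chromatin regulator MLL to a partner protein, here AF10, and are known for keeping genes of immature blood cells active. Positions are on mm9, counted from 1. A genome or gene annotation of that build was not used here, so domains are named by position and chromosome band, without genes or sequence.

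The 224 domains held from 6 to 21 gained regions, with a median of 7. They spanned 9.4 to 82 kb (median 33.6 kb, quartiles 24.4 and 43.2 kb), and gained regions covered 1.8 to 26.8 kb of each (median 8.6 kb). The covered share of the span was 25.4% at the median and ran from 8.25% to 77.1%. Together the spans took up 7.91 Mb, or 0.320% of the autosomes, and held 2.08 Mb of gained sequence, which was 12.6% of the gained length on autosomes. Most domains stood just inside the size limit: 100 had 6 regions and 56 had 7, while 28 had 10 or more. Just outside it were 193 clusters of 5 regions, with a median span of 22.6 kb against 27.8 kb for clusters of 6, and a median covered length of 5800 bp against 6200 bp.

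**Figure D1:**
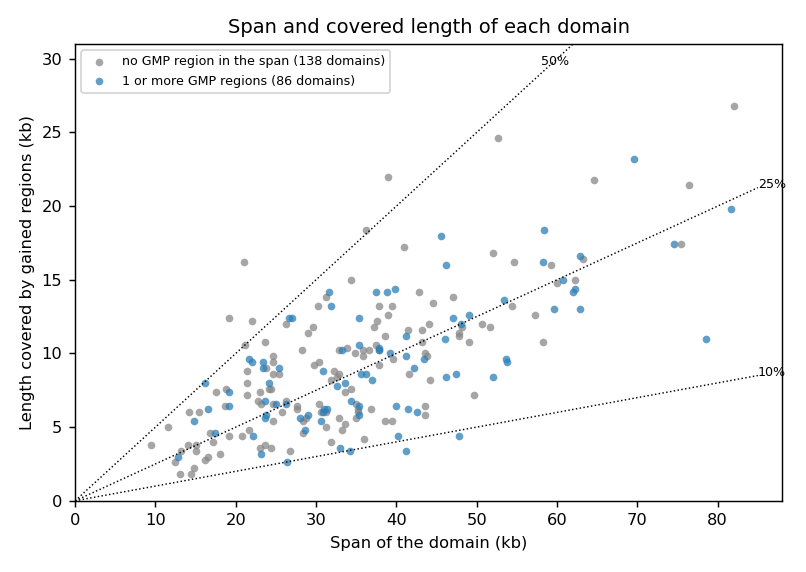
Each point is 1 of the 224 domains, with its span in kb on the horizontal axis and the length covered by gained regions in kb on the vertical axis. Blue points are the 86 domains with a GMP region in the span, grey points the other 138, and dotted lines mark 10%, 25% and 50% coverage; domains with and without GMP regions lie among each other.

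Neighbouring members lay close together. The 1448 gaps between neighbours had a median of 3000 bp (quartiles 1000 and 6400 bp), and 379 of them, or 26.2%, were of 1000 bp or less. In 105 cases the gap was 200 bp, the step of the grid on which all lists were written, so part of the count of regions reflects stretches that a short break divides. The largest gap inside a domain was 9.6 kb at the median. In 175 of the 224 domains (78.1%) at least 1 member was 2000 bp wide or more. Over single regions, 20.4% of members had that width, against 15.3% of other gained regions and 23.0% of regions in clusters of 5. A domain has several members, so the count of domains partly follows from the rule.

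The domain with the most gained regions lay on chromosome 2 in band qH3, from 169968801 to 170050400. Its 21 regions covered 19.8 kb of 81.6 kb, and most were narrow, with a median width of 600 bp. The widest measured 4600 bp, from 169981601 to 169986200, and was met by both leukemia lists. Of the 21, 8 were met by both lists, 6 by k+ only and 7 by k- only, and each leukemia list held 16 regions in the span. The 5 GMP regions in the span were spread along it, and 4 of them were on the lost list.

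The domain of 15 regions on chromosome 9 in band qB, from 55082001 to 55157400, was divided along its length between the leukemia lists. Among its first 7 regions, up to 55098800, 6 were met by k+ only and 1, of 600 bp, by k- only. The next 2, a region of 4800 bp from 55100801 to 55105600 and one of 1200 bp from 55117001 to 55118200, were met by both. All of the last 6 regions, from 55126001 on, were met by k- only. The span held 0 GMP regions. This domain was singled out after its values were seen, and how often a split of this kind arises in other domains was not counted.

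The other domain of 15, on chromosome 17 in band qB3 from 44806601 to 44869400, held 13 k+ and 13 k- regions. Of its gained regions 6 were met by both lists, 4 by k+ only and 5 by k- only. Its 3 GMP regions lay near its start. Its members met by k+ only lay between 44824801 and 44843800. Members met by k- only lay before, among and after these.

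On chromosome 18 in band qD3, from 55062201 to 55144200, 14 gained regions covered 26.8 kb of 82 kb. This was the greatest covered length and the longest span of any domain. Its median region measured 1900 bp, against 600 bp in the domain of 21 regions. Of the 14 regions, 7 were met by both lists, 5 by k- only and 2 by k+ only. The k- regions covered 24000 bp of it and the k+ regions 15400 bp.

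The remaining domains of 13 or 14 regions among the first 10 held from 4 to 12 k+ regions and from 9 to 14 k- regions. On chromosome 3 in band qD, from 60271601 to 60341200, k- had 13 regions covering 20800 bp and k+ had 6 covering 8800 bp. On chromosome 2 in band qA1, from 3621201 to 3680400, the counts were 14 for k- and 4 for k+. From 59850001 to 59896200 on the same chromosome, in band qC1.1, the order of the counts was the other way round, with 12 k+ and 9 k- regions, although k- covered slightly more sequence (11800 against 10200 bp). There were 6 domains of 13 regions, of which the 3 with the greatest covered length are described (a tie at 16200 bp was settled by chromosome order). They lay on chromosome 3 in band qA1 from 9850001 to 9914600, on chromosome 1 in band qB from 39484601 to 39561000, and on chromosome 10 in band qA3 from 19267001 to 19325200. In each of these the widest member was of 3600 bp. The first and second held no GMP region, while the third held 4 GMP regions, all of them maintained.

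**Figure D2:**
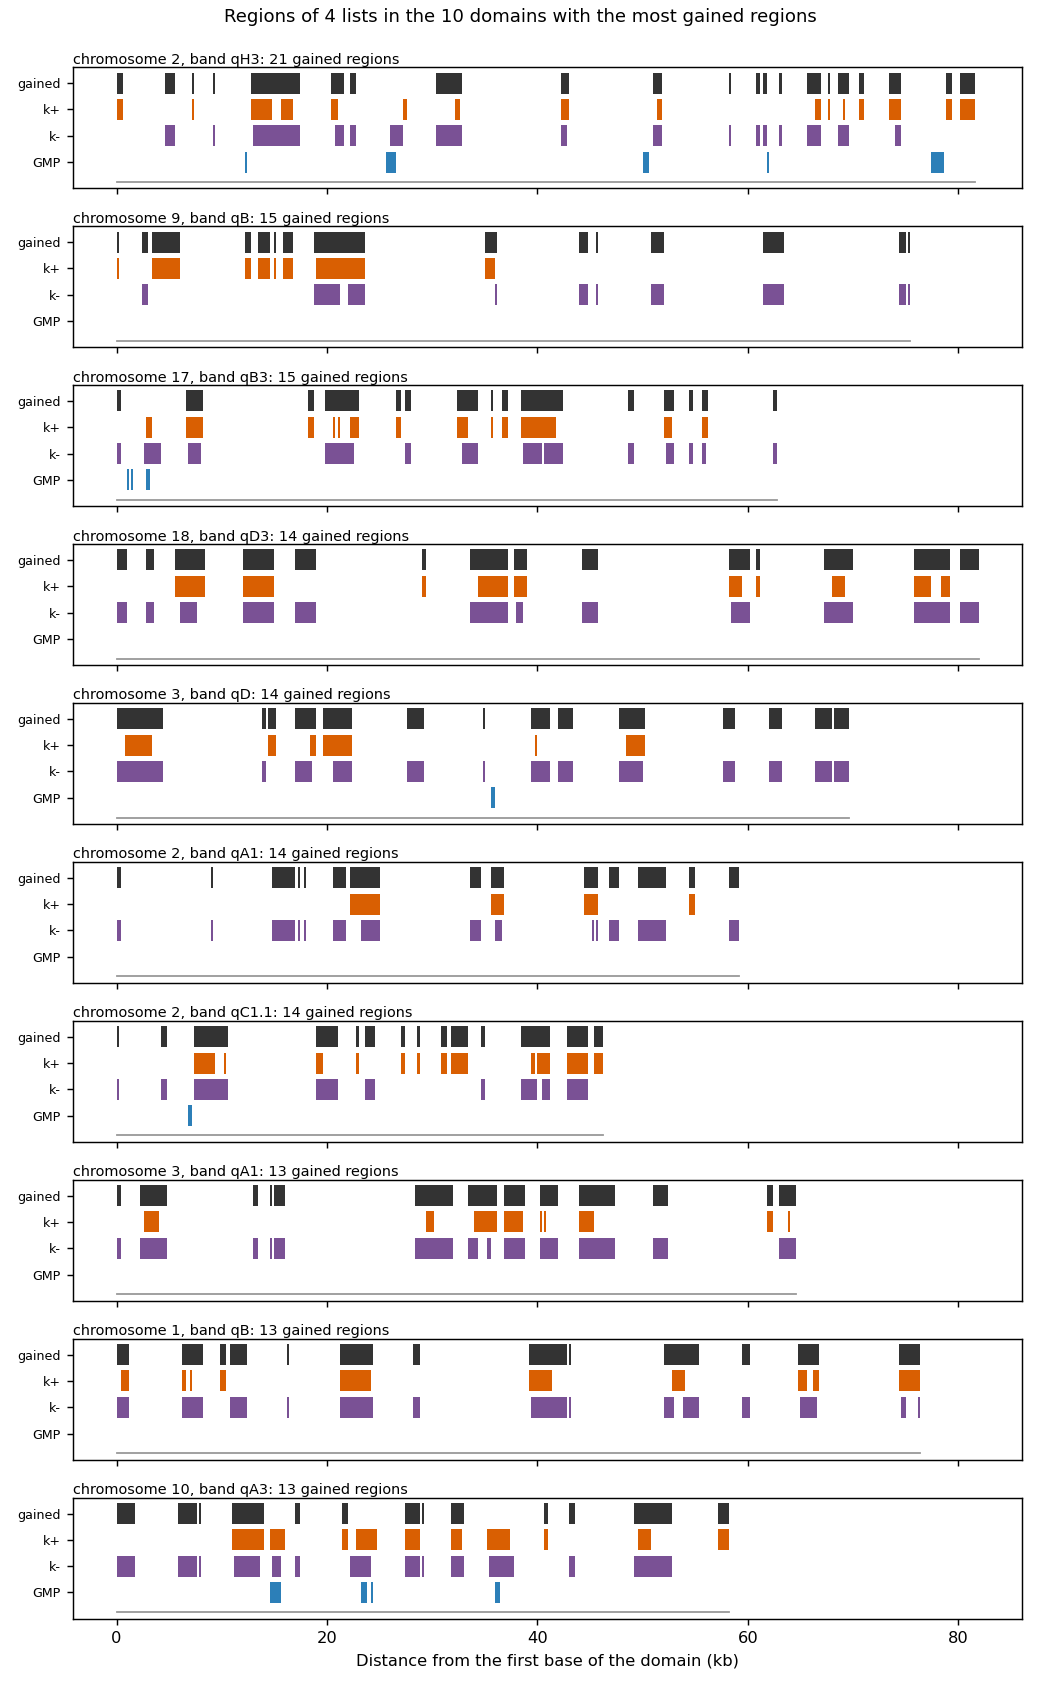
Each panel is 1 of the 10 domains with the most gained regions, drawn to a common scale in kb from its first base (of 6 domains tied at 13 regions, the 3 described in the text are shown). Bars are gained (black), k+ (orange), k- (purple) and GMP (blue) regions, and the grey line is the span; on chromosome 9 the k+ bars lie mainly to the left and the k- bars to the right, and 5 of the 10 panels show no GMP bar.

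The 5 domains with the highest coverage each held a member of 4200 bp or more. On chromosome 2 in band qC1.1, from 59798001 to 59819000, 6 regions covered 77.1% of 21 kb, with a member of 8600 bp at the centre (59805801 to 59814400). On chromosome 12 in band qD1, from 82846801 to 82866000, 6 regions covered 64.6% of 19.2 kb. Its members measured 2800, 400, 600, 600, 6400 and 1600 bp in order along the chromosome, and 4 of them were met by both lists, those of 2800, 6400 and 1600 bp and 1 of the 600 bp regions (82851201 to 82851800). On chromosome 2 in band qH3, from 167565601 to 167604600, 8 regions covered 56.4% of 39 kb, and the widest of them measured 10200 bp (167577001 to 167587200). On chromosome 9 in band qA5.1, from 40948601 to 40970600, 7 regions covered 55.5%. On chromosome 15 in band qD1, from 63853601 to 63889800, 10 regions covered 50.8% of 36.2 kb. None of these 5 held a GMP region, nor did 138 of all 224 domains (61.6%). Coverage here counts gained sequence only, and leukemia regions that meet GMP are left off the gained list, so this is description. With all leukemia regions counted, a domain on chromosome 18 in band qA1, from 15358001 to 15379600, reached 57.4% with 1 GMP region in its span. A second domain with a large covered length lay on chromosome 3 in band qF1, from 90461401 to 90514000, where 12 regions covered 24.6 kb, or 46.8% of the span.

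Some domains lay next to each other, beyond the stitching distance. In 10 places, domains lay no more than 100 kb apart. On chromosome 15 in band qD1, 3 domains with 26 gained regions in all lay between 63797201 and 63945200, and the domain of 10 regions named above was the middle of them. On chromosome 6 in band qG1, 2 domains 14 kb apart held 22 gained regions between 133995801 and 134118200. On chromosome 2 in band qC1.1, the domain with the highest coverage and the domain of 14 regions lay 31 kb apart. A further domain, of 6 regions from 60003601 to 60022400, followed 107400 bp further on. All 6 of its regions were met by k- only, whereas its 14-region neighbour had more k+ than k- regions.

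Members were divided between the leukemia lists much as other gained regions were, with a somewhat larger shared part. Of the 1672 members, 582 were met by both lists, or 34.8% (95% interval 32.5 to 37.2%), against 28.4% of all gained regions on autosomes and 27.6% (26.8 to 28.3%) of the gained regions outside domains. Members met by k+ only made up 19.7% (17.8 to 21.7%), against 21.3% of all autosomal gained regions. Those met by k- only made up 45.5% (43.1 to 47.9%), against 50.4%. The larger shared part was not particular to the domains: it was 31.4% (30.0 to 32.7%) in clusters of 3 to 5 regions, 33.6% (30.6 to 36.6%) in clusters of 5 and 31.8% (28.1 to 35.7%) in domains of 6, and 39.1% (34.0 to 44.5%) in domains of 10 or more. The intervals are exact Clopper-Pearson intervals. They cover counting error only, and neighbouring members are not independent, so they are too narrow.

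Wider members were more often shared, inside domains as outside. Among members over 2000 bp, 86.1% (81.4 to 89.9%) were met by both lists, against 81.1% (79.1 to 83.0%) of other gained regions of that width, with overlapping intervals. At 600 to 1000 bp the shares were 24.1% (20.1 to 28.4%) and 18.6% (17.4 to 19.9%). At 1200 to 2000 bp they were 52.3% (47.4 to 57.2%) and 48.5% (46.7 to 50.2%), and at 200 to 400 bp 3.85% (2.40 to 5.83%) and 2.83% (2.38 to 3.34%), with intervals that overlap. In clusters of 5 the shares, from the narrowest class to the widest, were 2.10%, 19.9%, 56.3% and 81.6%. The share at 1200 to 2000 bp was thus higher there than in members, and the other 3 were lower. Regions over 2000 bp made up 16.7% of members and 12.2% of other gained regions, while the median was 800 bp in both. Clusters just below the limit were much like members in this, with 18.5% over 2000 bp in clusters of 5 and 14.3% in domains of 6. Gained regions are merged from k+ and k-, so a region met by both can be wider than the regions it was merged from. How much this adds to the width of shared regions was not tested.

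**Figure D3:**
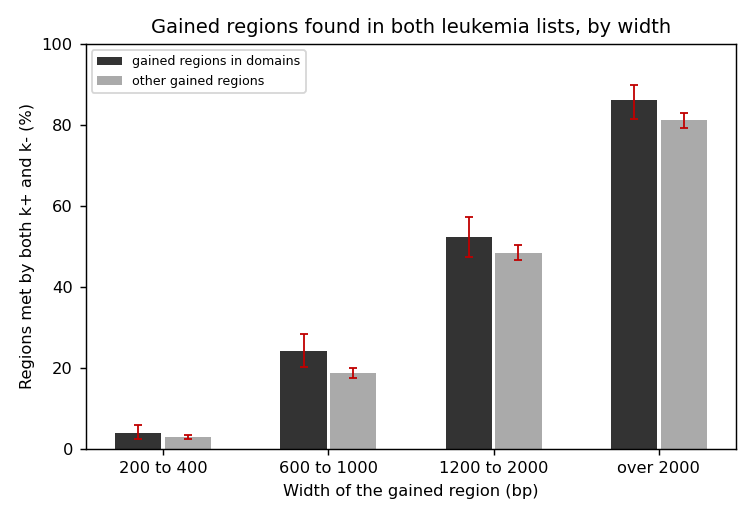
Bars give the percentage of gained regions met by both k+ and k- in 4 classes of width in bp, black for the members of domains and grey for the other autosomal gained regions, with red exact 95% intervals. Shares rise with width in both groups, from 3.85% to 86.1% in members and from 2.83% to 81.1% in the others. The black bar is the higher in each class, and the intervals overlap in all classes but 600 to 1000 bp.

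Members met by only 1 leukemia list often lay close to a region of the other list, which is given as description since the rule picks regions with close neighbours from these same lists. Of the 329 members met by k+ only, 75.1% (70.0 to 79.7%) lay within 5 kb of a k- region, beside 63.5% (60.4 to 66.5%) of such regions in clusters of 3 to 5. Of the 761 met by k- only, 53.1% (49.5 to 56.7%) lay within 5 kb of a k+ region, beside 43.2% (41.1 to 45.3%). In clusters of 5 the shares within 5 kb were lower than in members, but with intervals that overlap those of members. They were 63.5% (55.95 to 70.56%) for k+ only and 47.3% (42.67 to 51.96%) for k- only. Within 1 kb the shares were 22.2% and 12.8% for members, and 23.9% and 10.7% in clusters of 3 to 5, with overlapping intervals. In 142 of the 224 domains (63.4%, 56.7 to 69.7%) there were members of all 3 kinds. A cluster of more regions has more room for all 3 kinds, and the share in other clusters was not counted.

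The number of leukemia regions per domain was higher for k- than for k+. Domains held 0 to 16 k+ regions (median 5) and 1 to 16 k- regions (median 6). There were more k- regions in 146 domains (65.2%, 58.5 to 71.4%), more k+ regions in 45 and equal numbers in 33. The k- list is the longer, with 13639 autosomal regions against 9293. The spans held 10.6% of the k- list (10.1 to 11.2%) and 11.2% of the k+ list (10.6 to 11.9%). When k- was cut to its widest 9404 regions, as many as k+ holds, 78 domains had more k- regions and 109 had more k+. This cut also removed all k- regions under 600 bp, so list length and region width changed together. By sequence covered, with both lists whole, k- was ahead in 184 domains and k+ in 38. The longer k- list enters this split too. Neither the total length of each list nor the same split in other clusters was computed, so it is not read as particular to the domains.

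**Figure D4:**
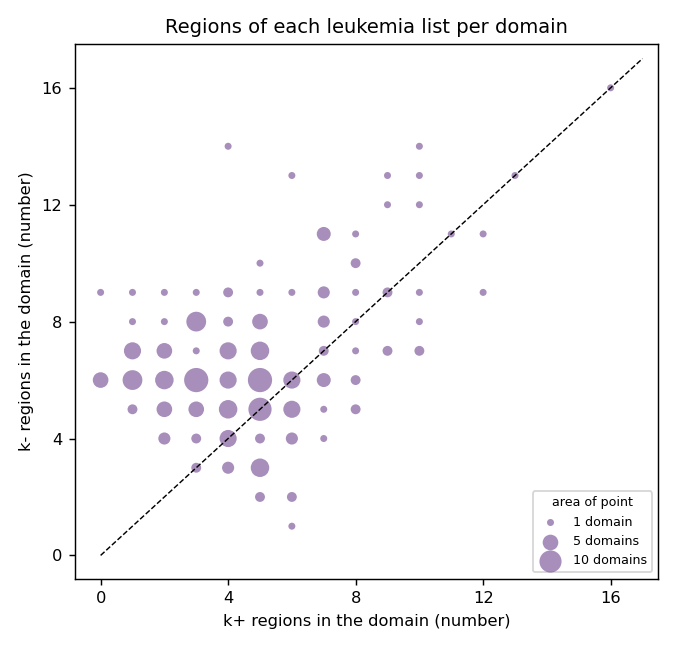
Each point is a combination of the number of k+ regions (horizontal axis) and k- regions (vertical axis) in a domain, and its area is the number of domains with that combination. The dashed line marks equal numbers: 146 domains lie above it, 45 below and 33 on it.

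Domains at the k- end were found in 6 places without any k+ region, whereas 0 of the 224 domains lacked k- regions, which allows a share of up to 1.34% (3 counts of the 224). The largest of the 6, from 59714801 to 59747400 of chromosome 10 (band qB4), was one where 9 regions of 200 to 2000 bp covered 8400 bp. The other 5 held 6 regions each and lay on chromosomes 10, 11, 12, 19 and 2. Further domains with a wide margin for k- lay on chromosome 6 in band qF3 from 129283601 to 129314600, with 9 k- regions and 1 k+ region, and on chromosome 5 in band qG2 from 135936601 to 135967800, with 9 and 2. In the latter the widest member, of 7600 bp from 135938001 to 135945600, was the longest, and k- regions outnumbered the 7 members, since a merged member can hold several regions of 1 list.

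At the k+ end, a domain of chromosome 4 (8621601 to 8647400, band qA1) had 6 k+ regions and 1 k- region. Its single k- region met a member of 2200 bp, from 8636001 to 8638200, and the other 5 members, of 200 to 1600 bp, were met by k+ only. On chromosome 2 in band qA1, from 11305201 to 11318200, 7 very narrow members, none over 400 bp, covered 1800 bp, with 6 k+ and 2 k- regions. On chromosome 11 in band qC, from 82647201 to 82679800, there were 6 k+ and 2 k- regions, and 1 maintained GMP region. Of its 6 members, 4 were met by k+ only, 1 by k- only and 1 by both. The k+ count thus includes a region that is not on the gained list. The domain on chromosome 10 in band qB5.1, from 66549601 to 66596600, had 10 k+ and 7 k- regions and a widest member of 5600 bp. By sequence, however, k- covered more of it than k+ (11800 against 8200 bp).

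GMP regions lay inside a minority of the domains. Of the 224 spans, 86 held at least 1 GMP region, or 38.4% (32.0 to 45.1%), against 4.46% of all stitched clusters, single regions included. A single gained region cannot hold one, since regions that meet GMP are not on the gained list, and a longer span has more room. In clusters of 3 to 5 regions, with a median span of 13.6 kb, the share was 15.3% (13.4 to 17.4%). Per 100 kb of span the domains held 1.83 GMP regions and the clusters of 3 to 5 held 1.37. By size the value went up and down, with 1.73 in clusters of 5, 2.06 in domains of 6, 1.45 in those of 7, 1.18 in those of 8 to 9 and 2.51 in those of 10 or more. Within the domains the share did not climb evenly: it was 39.0% at 6 regions, 32.1% at 7, 32.5% at 8 to 9 and 57.1% (37.2 to 75.5%) at 10 or more, with overlapping intervals.

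**Figure D5:**
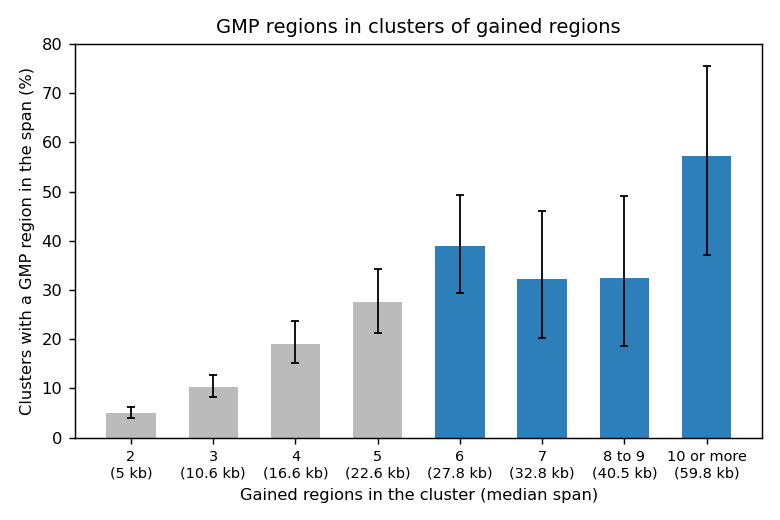
Bars give the percentage of stitched clusters of gained regions whose span holds a GMP region, by the number of gained regions in the cluster, with the median span in kb under each number and exact 95% intervals. Blue bars are the domains; the bar for clusters of 5 stands at 27.5% and that for clusters of 6 at 39.0%, with overlapping intervals.

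The domain with the most GMP regions lay on chromosome 6 in band qG1, from 134043601 to 134118200, with 6 GMP regions among 12 gained ones. It held 5 maintained pieces and 1 lost region. Leukemia regions that met GMP added to its coverage, since gained regions took up 23.3% of its span and all leukemia regions 38.6%. On chromosome 7 in band qD1, from 75271801 to 75309200, 4 GMP regions lay among 11 gained regions, and the corresponding shares were 38.0% and 54.5%. On chromosome 3 in band qF2.2, from 103577201 to 103636800, 4 GMP regions lay among 11 gained regions, 2 of them lost. On chromosome 1 in band qE4, from 130445001 to 130523600, gained regions covered 14.0% and all leukemia regions 27.5% of one of the longest spans, which held 3 maintained pieces.

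The lost share of GMP regions inside the spans was close to that elsewhere, with overlapping intervals. Of the 145, 67 were lost, or 46.2% (37.9 to 54.7%), against 43.1% (41.3 to 44.9%) of the 2954 GMP regions more than 12.5 kb from any domain. The 65 GMP regions just outside the spans, within that distance, were lost in 21.5% (12.3 to 33.5%) of cases. A leukemia region that meets GMP is left off the gained list and so cannot extend a domain, and its part in this value was not tested. The median width of GMP regions was 400 bp inside the spans and 600 bp both just outside and elsewhere. Lost shares were not compared at like width.

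Every autosome had domains, from 6 on chromosome 8 to 26 on chromosome 2. The share of gained regions that lay in domains was 11.2% over the autosomes. It was highest on chromosome 13, at 19.1% (16.4 to 22.1%), followed by chromosome 2 at 16.3% (14.4 to 18.5%) and chromosome 9 at 15.2% (12.9 to 17.8%). It was lowest on chromosome 4, at 5.75% (4.25 to 7.57%), and chromosome 5, at 6.38% (4.88 to 8.17%). Regions enter a domain 6 or more at a time and are not independent, so these intervals are too narrow to rank chromosomes. The share is an outcome of the rule and is given as description. On chromosome 13, 20 domains gave 16.6 domains per 100 Mb, against 4.50 on chromosome 4.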

How the data were processed

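The authors deposited 6 region lists covering the entire series. Each list has 3 columns (chromosome, start, end) and 0 columns of score or signal. The submitters' processing notes name BWA, Picard, MACS2, HOMER and deepTools and the build mm9; their order, settings and versions, and the rule for an enhancer, are not stated in the labels. All positions are multiples of 200 bp. Stitching, overlap (at least 1 bp) and exact Clopper-Pearson 95% intervals were computed with SciPy 1.17.1, pandas 2.3.3 and NumPy 2.4.6 under Python 3.11.15, plotted with matplotlib 3.10.9, and checked on simulated data. Chromosome bands and lengths came from circlize 0.4.16 in R 4.3.3. Domains were named by rank in number of regions, covered length, span, coverage, excess of k+ or k- and GMP regions. Members and lists were chosen with earlier results of these data known. Since regions of a list share their source, no p-value was computed. Alternatives covered stitching distance, region number, width, joining, overlap and list length. Genes, base composition, motifs and read signal of the 24 libraries were not analysed here, since an mm9 genome and annotation were not used.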

Additional observations from a re-analysis of the deposited data

How the results depend on the processing

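Of 47 alternative values, 15 stayed near the reported value, 31 moved and 1 turned direction. Counts were held to a 1.5-fold range, shares to their exact 95% interval and medians to an order-statistic interval (23.91 to 26.98% for coverage). Stitching at 5000 bp gave 54 domains with 368 members, and at 25000 bp 456 with 3782. A minimum of 5 regions gave 417 with 2637, and of 8 regions 68 with 680. Regions of at least 400 bp gave 123 with 908, of at least 800 bp 34 with 239, and joining regions within 1000 bp first gave 120 with 843. Stitching all merged leukemia regions, an alternative chosen after seeing the data, gave 346 with 2683. Members met by both lists, k+ only and k- only were 20.5%, 24.3% and 55.2% with 50% of both regions shared, 45.0%, 15.3% and 39.7% within 1000 bp, and 38.3%, 30.5% and 31.2% with the widest k- regions at the k+ number. Domains with a GMP region were 51.3% when GMP regions within 12.5 kb counted, 31.5% at 5000 bp stitching and 49.3% at 25000 bp. Joining raised the median member width to 1200 bp, the k+ and k- union raised median coverage to 27.3%, and the widest k- regions gave a median of 4 k- regions per domain. Domains with more k- minus those with more k+ regions were 101, and -31 with the widest k- regions at the k+ number. List length and region width changed together there, and the cause was not tested. Gene and base composition alternatives were not run. No paired analysis was possible because the lists carry no replicate numbers. Without scores, the part of calling depth in these counts was not tested.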

Other observations

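The X chromosome, left out by the rule, held 2 clusters of 6 gained regions. One, from 71487801 to 71501200, covered 5400 bp with 5 k+ and 5 k- regions, and the other, from 103326001 to 103347400, covered 12000 bp with 3 k+ and 6 k- regions. Both held 0 GMP regions.

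Members at the ends of a domain were compared with those inside it. The 448 end members had a median width of 800 bp, as did the 1224 inner members, and 32.1% (27.8 to 36.7%) against 35.8% (33.1 to 38.5%) were met by both leukemia lists, with overlapping intervals.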
